A study of Mus musculus with 223 samples.

Results

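The genes described are the 2 members of the Zeb family, Zeb1 and Zeb2, and the 4 members of the nuclear factor I family, Nfia, Nfib, Nfic and Nfix, 6 of the 43629 genes counted. They were listed by name and matched to the deposited Ensembl identifiers. The list was drawn up after the pooled levels and the shares of expressing cells had been seen, and Zeb1 was on it because its level was higher after birth in type 2 INs. The levels by age and type are therefore given as descriptions, without a test. All 6 are among the 9358 genes that exceeded 10 RPM in over 5% of cells, which served as the background.

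Counts came from single Htr3a-GFP+ cells of the cortex, 82 at embryonic day 18 (E18), 66 at postnatal day 2 (P2) and 75 at P5. All animals carried a transgene that places enhanced GFP under Htr3a regulatory sequences, on a C57BL/6 background, and both sexes were used. GFP in these animals marks preferentially, though not exclusively, INs of the caudal ganglionic eminence (CGE). Cells of several embryos or pups were pooled at each age before sorting and no label names an animal, so each age is 1 sample and no difference has a replicate check. The authors placed the postnatal cells in types 1, 2 and 3, with 22, 31 and 13 cells at P2 and 34, 19 and 22 at P5, using the same counts.

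RPM is the number of read pairs on a gene in 1000000 mapped read pairs of the cell. Pooled RPM is the summed count of a group over its summed mapped read pairs, with an exact 95% Poisson interval. Cells above 10 RPM were counted as expressing, with exact 95% binomial intervals on their share. Both kinds of interval hold counting error alone, because read pairs lack molecular identifiers and are not independent molecules. Mapped read pairs per cell ranged from 3707601 to 15840130, with lower medians in type 3 at P2 (6483871) and P5 (7879973) than over all cells (9463033). The descriptions of the cells hold a number, called the library set here, whose meaning is not given in the sources used here. It was 353 for every P2 cell and 383, 392 or 393 at the other ages, so age and set cannot be told apart for P2. P5 cortices were also dissociated in another medium and at another temperature than E18 and P2 cortices, which cannot be told apart from age.

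Each library is 1 cell, and no pair of cells had identical counts. The labelled identity was checked on 7 markers of INs (Gad1, Gad2, Dlx1, Dlx2, Dlx5, Dlx6 and Slc32a1). At E18, 78 of 82 cells had at least 1 marker above 10 RPM, as did 21 of 22, 29 of 31 and 12 of 13 cells of types 1, 2 and 3 at P2, and every P5 cell. Markers of INs of the medial ganglionic eminence (MGE) differed with age. Sst, which encodes somatostatin, was above 10 RPM in 63.4% of E18 cells, and Lhx6, which specifies MGE-derived INs, in 48.8%. Either gene exceeded 10 RPM in 62 of 82 cells at E18 (75.6%), against 1 of 22, 9 of 31 and 4 of 13 cells at P2 and 2 of 34, 1 of 19 and 0 of 22 cells at P5. The share at E18 was 75% in set 383, 77.8% in set 392 and 76% in set 393. Whether other kinds of IN were captured or these genes differed with age within a kind was not tested, and the members' differences from E18 to P5 are given with and without these cells, as are the counts of the gene lists.

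Zeb proteins are zinc finger and homeodomain factors that bind E-boxes of the letters CACCTG and mostly repress, by recruiting CtBP and chromatin modifiers. Zeb2 is known for steering MGE-derived INs towards the cortex, in part by shutting off Nkx2-1, and Zeb1 for holding neural progenitors in an unpolarized state. Nfi proteins bind as dimers to a pair of TTGGC motifs. Nfia, Nfib and Nfix are known in the forebrain for the switch to gliogenesis and for neuronal migration and maturation, and Nfic for tooth root formation.

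Promoter windows of 300 bases, from 250 before to 50 after a transcription start, were taken from RefSeq (GRCm38.p6) for Zeb2, Nfia, Nfic and Nfix. They were searched on both strands for the 6 letters of the Zeb E-box and the 5 of the Nfi motif named above. Over 32851 windows of all genes, 20.2% held the E-box and 46.7% held the Nfi motif. The Nfi motif was found in all 4 windows of Zeb2, of which 2 overlap by most of their length, and in 3 of 4 windows of Nfix. The E-box was found in 1 window, of Nfix, and neither motif was found in the windows of Nfia and Nfic. A match says only that these letters are present. The first Zeb2 window (chr2:45117393-45117692, minus strand) is shown for its Nfi motif. The second Nfix window (chr8:84775779-84776078, minus strand) is shown as the only one with both motifs. The Nfia window is not shown, since the whole of it (chr4:97581693-97581992, plus strand) ends 190.7 kb before the GENCODE gene model by which the gene is placed here. Sequences run 5′ to 3′ on the strand of the gene, with matches to either motif, on either strand, in capitals.
Zeb2 promoter: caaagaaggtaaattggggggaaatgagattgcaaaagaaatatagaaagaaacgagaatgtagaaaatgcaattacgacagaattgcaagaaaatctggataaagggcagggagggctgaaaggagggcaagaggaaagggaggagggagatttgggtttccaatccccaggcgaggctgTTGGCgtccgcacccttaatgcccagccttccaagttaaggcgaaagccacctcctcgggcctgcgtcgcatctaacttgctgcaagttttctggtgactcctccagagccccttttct
Nfix promoter: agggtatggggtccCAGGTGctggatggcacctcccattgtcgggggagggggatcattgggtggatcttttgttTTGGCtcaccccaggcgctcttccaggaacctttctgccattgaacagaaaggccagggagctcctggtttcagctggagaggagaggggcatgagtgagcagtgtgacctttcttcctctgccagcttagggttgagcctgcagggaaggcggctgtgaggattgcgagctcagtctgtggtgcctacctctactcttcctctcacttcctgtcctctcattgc

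The genes lie apart in the mouse genome (build GRCm38). Zeb1 (ENSMUSG00000024238) spans chr18:5591860-5775467 on the plus strand and Zeb2 (ENSMUSG00000026872) chr2:44983632-45117395 on the minus strand. Nfia (ENSMUSG00000028565) spans chr4:97772734-98118874 on the plus strand and Nfib (ENSMUSG00000008575) chr4:82290173-82705750 on the minus strand of the same chromosome. Nfic (ENSMUSG00000055053) spans chr10:81396186-81455635 and Nfix (ENSMUSG00000001911) chr8:84699876-84800344, both on the minus strand. Genes on the other strand overlap each of them. Zeb2os shares 3.27% of the exonic bases of Zeb2, Gm10125 1.93% of those of Zeb1, G430095P16Rik 1.86% of those of Nfix and Gm16104 1.09% of those of Nfic. Whether counting used strand is not given in the sources used here.

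By pooled RPM, Zeb1 was low at E18 and higher in every postnatal group except type 3 at P2. Its pooled level at E18 was 7.80 RPM (interval 7.60 to 8.00). The 82 cells ranged from 0 to 421 RPM with a median of 0.543, and 6 of them (7.32%, interval 2.73 to 15.2) were above 10 RPM. Most E18 cells therefore held a few Zeb1 read pairs and very few cells held many.

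At P2, type 1 INs reached 144.7 RPM (143.1 to 146.3), with cells from 0 to 1481 RPM and a median of 10.6. Type 2 INs at P2 reached 60.2 RPM (59.3 to 61.1), from 0 to 741 RPM with a median of 2.24. Type 3 INs at P2 stayed at 5.87 RPM (5.36 to 6.41), from 0 to 42.7 RPM with a median of 0.131. Of the cells of types 1, 2 and 3, 11 of 22, 10 of 31 and 2 of 13 exceeded 10 RPM.

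At P5, Zeb1 was present in all 3 types. Type 1 INs had 128.99 RPM (127.8 to 130.2), from 0 to 964 RPM with a median of 8.28 and 16 of 34 cells above 10 RPM. Type 2 INs had 98.03 RPM (96.6 to 99.5), from 0 to 467 RPM with a median of 13.4 and 10 of 19 cells (52.6%, 28.9 to 75.6) above 10 RPM. Type 3 INs had 85.7 RPM (84.3 to 87.04), from 0 to 739 RPM with a median of 2.13 and 7 of 22 cells above 10 RPM. The ranges of cells of all 7 groups overlapped, and no P5 type had more than 52.6% of its cells above 10 RPM.

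The difference from E18 to P5 was 3.89, 3.49 and 3.30 on the log2 scale with 1 RPM added, for types 1, 2 and 3. This ranked 21, 62 and 90 from the top among the 9358 genes. Zeb1 was listed because its level was higher after birth in type 2, so nothing is read from these ranks. In plain ratios of pooled RPM, the level was 16.5, 12.6 and 11.0 times that at E18. From E18 to P2 the difference was 4.05 in type 1 and 2.80 in type 2 and -0.36 in type 3, and from P2 to P5 it was -0.16, 0.69 and 3.66. By pooled RPM, Zeb1 was thus above its E18 level already at P2 in types 1 and 2, and only at P5 in type 3. The sign in type 3 at P2 changed under other scalings, with 0.40 by TMM and 0.81 by DESeq2 factors. Without the highest cell of both groups the difference there was -1.32. In type 2 the difference from P2 to P5 was 1.07 without the highest cell of both groups and 1.36 by the mean of log2(RPM + 1), but 0.29 without cells with Lhx6 or Sst and 0.48 when cells with markers of another cell type were left out too.

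Single cells held much of these sums. Without its highest cell, Zeb1 was at 4.71 RPM at E18. It was then at 88.7 RPM (type 1), 37.3 RPM (type 2) and 1.28 RPM (type 3) at P2, and at 108.7, 79.5 and 43.8 RPM in the same order at P5. The differences from E18 to P5 without the highest cell of both groups were 4.26, 3.82 and 2.97. E18 cells without Lhx6 or Sst had more Zeb1 (22.6 RPM in 20 cells, with 3 cells above 10 RPM) than those with either marker (3.18 RPM in 62 cells, 3 above). The 20 cells include the highest E18 cell, at 421 RPM, and stood at 9.79 RPM without it. Where cells with markers of another cell type were also left out, the other 14 stood at 2.24 RPM. Among cells without either marker, the difference from E18 to P5 was 2.49, 2.14 and 1.87, so it stayed past 2-fold in every type. Within the library sets, E18 levels were 1.05, 5.69 and 21.7 RPM in sets 383, 392 and 393. Within-set differences were positive in 8 of the 9 comparisons of a P5 type with E18, the exception being the 2 type 3 cells of set 383 (-0.77).

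**Figure D1:**
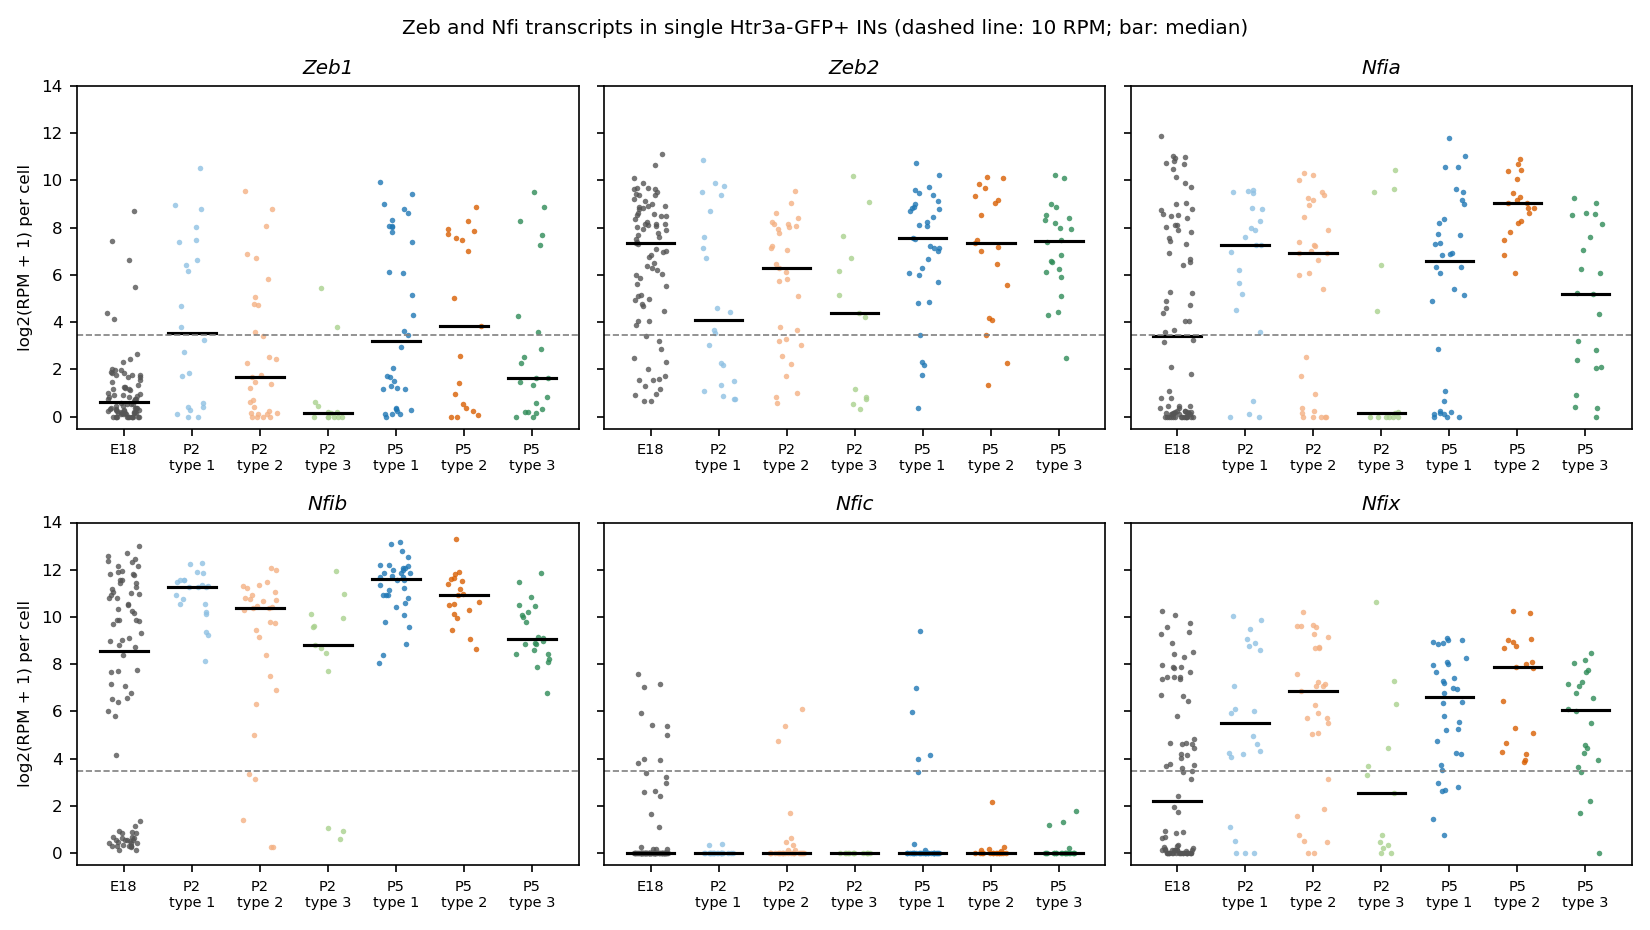
Level of each gene in every cell, as log2(RPM + 1), for the 7 groups of E18, P2 and P5 cells. Points are cells, bars are medians and the dashed line is 10 RPM, above which lie 54 of 82 Nfib cells at E18 and all 75 at P5, and 6 of 82 Zeb1 cells at E18 and 33 of 75 at P5.

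Zeb2 was the broadly present member of its family, with at least 1 read pair in every cell. At E18 the cells ranged from 0.567 to 2252 RPM with a median of 160.7, and 66 of 82 were above 10 RPM. The pooled level was 275 RPM (273 to 276) at E18 and 275 RPM (273 to 277) in type 1 INs at P2, values whose intervals overlap. It was 156.5 RPM in type 2 and 138.8 RPM in type 3 at P2, and at P5 it was 348 RPM (type 1), 382 RPM (type 2) and 261 RPM (type 3).

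The cells of these groups overlapped throughout. Medians were 16.3, 77.1 and 20.2 RPM at P2, where 13 of 22, 22 of 31 and 8 of 13 cells were above 10 RPM. They were 185.8, 160.96 and 173.2 RPM at P5, where 30 of 34, 17 of 19 and 21 of 22 cells were above 10 RPM. The median of Zeb2 at P2 was thus below that at P5 and at E18 in every type. In type 3 at P2 a single cell held 53.1% of the read pairs and the level without it was 69.6 RPM.

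By pooled RPM, no difference of Zeb2 from E18 passed 2-fold at P2 (0.00, -0.81 and -0.98 for types 1, 2 and 3) or at P5 (0.34, 0.47 and -0.07). Several alternatives did at P2, with -1.48 in type 1 and -2.07 in type 3 by the mean of log2(RPM + 1), and -1.83 in type 3 without the highest cell of both groups, where DESeq2 factors gave 0.32. In type 2 at P2 it was -1.14 without cells with Lhx6 or Sst or with markers of another cell type. At P5 it was 1.11 in type 1 in set 393 and -1.80 in type 3 in set 383, which holds 2 type 3 cells. The value for type 3 at P5 was between 0.50 and 0.72 under the other scalings tried, by total counts on genes, TMM or DESeq2 factors. From P2 to P5 the difference was 0.34, 1.28 and 0.90 in types 1, 2 and 3. By the mean of log2(RPM + 1) it was 2.06, 1.32 and 2.75, and in type 3 it was also past 2-fold by total counts on genes (1.31) and without the highest cell of both groups (1.70), so the order of the types depends on the measure. Without cells with Lhx6 or Sst, Zeb2 differed from E18 to P5 by 0.56, 0.79 and 0.17. At E18, Zeb2 was above 10 RPM in 53 of the 62 cells with Lhx6 or Sst and in 13 of the 20 cells without.

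Per kilobase of exon, Zeb2 made up nearly all of the family at E18, with 13.8 RPM per kb against 0.760 for Zeb1. Zeb1 was 5.23% of the family sum at E18, 50.6%, 42.8% and 7.59% in types 1, 2 and 3 at P2, and 41.9%, 33.3% and 38.95% at P5. The family sum was 14.5 RPM per kb at E18 and 30.02, 28.7 and 21.4 in the 3 types at P5. At E18 both members were above 10 RPM in 2 of 82 cells. At P5 they were in 31 of 75 cells, and 31 of the 33 cells with Zeb1 also had Zeb2.

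**Figure D2:**
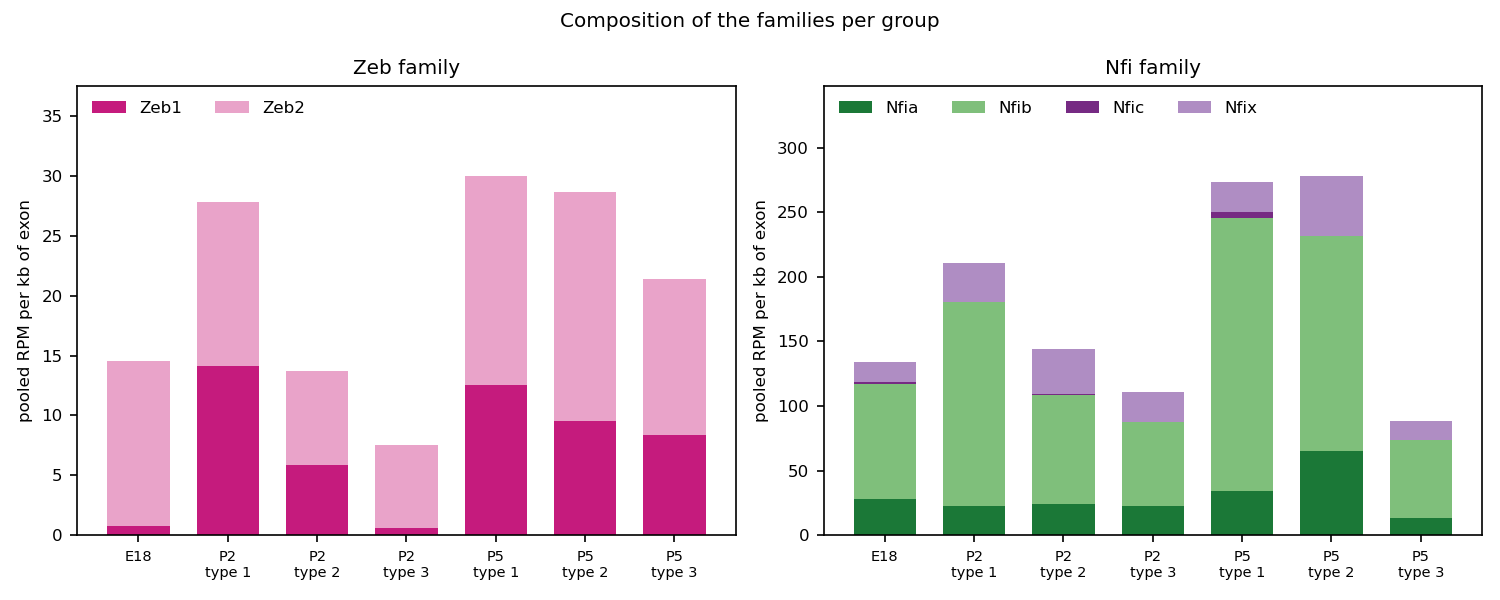
Pooled level per kilobase of exon of the Zeb family (left) and the Nfi family (right) for the 7 groups, stacked by gene. Zeb1 is 5.23% of the Zeb bar at E18 and 33.3% to 41.9% at P5, and Nfib is the largest part of the Nfi bar in every group, from 58.4% to 77.3%.

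Nfib was the most abundant member of the Nfi family in every group, from 58.4% to 77.3% of the family sum per kilobase. Its E18 cells fell apart into 2 clouds. They ranged from 0.0854 to 8284 RPM with a median of 379, 26 of the 82 held at least 1 read pair but less than 1 RPM, and 54 (65.9%, 54.6 to 75.97) were above 10 RPM. At P5 every cell was above 10 RPM, and the lowest cell of types 1, 2 and 3 was at 267, 403 and 108.4 RPM.

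The pooled level of Nfib was 1338 RPM (1336 to 1341) at E18. At P2 it was 2365, 1268 and 966 RPM in types 1, 2 and 3, with medians of 2477, 1336 and 445 and with 22 of 22, 26 of 31 and 10 of 13 cells above 10 RPM. At P5 it was 3167, 2495 and 901 RPM, with medians of 3151, 1963 and 532. The groups overlapped, but the lower cloud seen at E18 was not present in type 1 at P2 or in any type at P5. The difference from E18 to P5 was 1.24, 0.90 and -0.57 for types 1, 2 and 3. In type 1 it was past 2-fold in set 383 (1.85) and within 2-fold in sets 392 (0.78) and 393 (0.82). In type 3 the sign depended on the scaling, with 0.23, 0.01 and 0.08 by total counts on genes, TMM and DESeq2 factors, although the share of cells above 10 RPM was higher than at E18. The mean of log2(RPM + 1) over cells, in which each cell weighs the same, was higher than at E18 by 4.54, 4.09 and 2.62. In type 2 the pooled difference was past 2-fold with TMM (1.06) and DESeq2 factors (1.23) and in set 392 (1.94). It was 0.65 without the highest cell of both groups, 0.26 in set 393, which holds 14 type 2 cells, and -0.19 in set 383.

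Nfia was above 10 RPM in 41 of 82 E18 cells, which ranged from 0 to 3801 RPM with a median of 9.76 and a pooled level of 304 RPM (303 to 305). At P2 the pooled levels were 242, 258 and 247 RPM in types 1, 2 and 3, where the counting intervals of types 1 and 3 overlap. The medians of these types, 153.3, 119.2 and 0.124 RPM, differed more, and 18 of 22, 20 of 31 and 5 of 13 cells were above 10 RPM. In type 3 at P2 the level was 160.8 RPM without the highest cell.

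At P5, Nfia was highest in type 2 INs and lowest in type 3 INs by pooled level, with overlapping cells. Type 2 INs had 710 RPM (706 to 714), with all 19 cells above 10 RPM, the lowest at 66.3, the median at 528 and the highest at 1924. Type 1 INs had 374 RPM, from 0 to 3588 with a median of 96.5 and 23 of 34 cells above 10 RPM. Type 3 INs had 143.1 RPM, from 0 to 618 with a median of 35.95 and 13 of 22 cells above 10 RPM. Against the other P5 types, type 2 was higher by 1.25, type 1 was at -0.22 and type 3 at -1.77. Type 2 was higher without the highest cell of both groups (1.40), in set 392 and in set 393, but not in set 383, which holds 2 type 2 cells (-0.33). It was within 2-fold when scaled by total counts on genes (0.92), and without cells with Lhx6 or Sst or with markers of another cell type (0.94).

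Astrocyte and radial glia markers moved with this difference. Their summed level (8 genes) was 2044 RPM in type 2 at P5, from 0.757 to 18344 RPM per cell with a median of 166.6, against 268 RPM in type 1 (1.04 to 1393) and 260 RPM in type 3 (1.68 to 1782). None of the 8 was at 0 in type 2 at P5, and 4 of its 19 cells had at least 3 of them above 10 RPM. Without those 4 cells Nfia was at 612 RPM in type 2, and without such cells in any type its difference from the other P5 types was 1.01 in place of 1.25. All 4 had Nfia, Nfib and Nfix above 10 RPM, but so did all 19 cells of type 2 at P5. Summed levels of markers of other cells were also higher in type 2 at P5. The summed level of 7 endothelial and mural markers was 95.2 RPM there, against 4.45 and 8.35 RPM in types 1 and 3, with Cldn5, Kdr and Cdh5 at 0 in all 3 types. The median per cell was lower in type 2, however, at 3.18 RPM against 4.39 and 6.77 RPM, and its highest cell was at 1194 RPM. The summed level of 7 markers of the oligodendrocyte lineage was 141.1 RPM, against 57.7 and 23.4 RPM, with a median of 1.38 RPM per cell and a highest cell of 3175 RPM in type 2. The part of these markers in the rest of the difference was not tested.

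Nfix followed Nfia in part. It was above 10 RPM in 38 of 82 E18 cells, which ranged from 0 to 1216 RPM with a median of 3.59, and the pooled level was 114.6 RPM (113.8 to 115.3). At P2 it was 223.04, 255 and 171.5 RPM in types 1, 2 and 3, with medians of 45.1, 115.5 and 4.78 and with 17 of 22, 23 of 31 and 5 of 13 cells above 10 RPM. A single type 3 cell held 86.1% of that type's read pairs, and the level without it was 26.2 RPM. At P5 it was 169.9, 341 and 107.5 RPM, with medians of 96.3, 234 and 65.8 and with 28 of 34, 19 of 19 and 18 of 22 cells above 10 RPM. Type 2 had the highest pooled level at both ages, though at P2 its difference from the other types was 0.29 and changed sign with TMM (-0.065) and DESeq2 factors (-0.19), and in set 383 at P5 type 1 (245 RPM) was above type 2 (189.4 RPM). Its cells at P5 ranged from 13.5 to 1210 RPM, overlapping the other types, whose highest cell was at 555 RPM. Against the other P5 types it was higher by 1.19, and by 0.996 without the highest cell of both groups, 0.996 with TMM factors and 0.86 by total counts on genes, which are within 2-fold. In type 2, set 392 held 949 RPM in 3 cells and set 393 held 220 RPM in 14. The difference was past 2-fold in set 392 (2.98) and not in set 393 (0.74), the set with most type 2 cells, or in set 383 (-0.20).

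Nfic was rare. It had no read pair in most cells and was above 10 RPM in 10 of 82 at E18, 3 of 66 at P2 and 5 of 75 at P5. At E18 the pooled level was 7.81 RPM, the median cell was at 0 and the highest at 190.4 RPM. At P2 only type 2 had cells above 10 RPM, 3 of 31, with 5.05 RPM, or 2.59 without its highest cell. None of 13 type 3 cells at P2 held a read pair, which allows a pooled level of up to 0.0360 RPM when 3 read pairs over the group are taken as the limit of a count of 0. Against that limit it was 217.1-fold lower than at E18. The exact Poisson interval is wider and reaches 0.0443 RPM, so this fold is not a lower bound. For the share of cells above 10 RPM, the exact interval of 0 of 13 reaches 24.7%, which includes the E18 share of 12.2%.

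At P5, 5 of 34 type 1 cells were above 10 RPM, with 30.9 RPM, of which 1 cell at 677 RPM held 77.5%. Without that cell the level was 7.21 RPM, and the difference from E18, 1.86 with all cells, was 0.24 without the highest cell of both groups. Type 2 held 30 read pairs (0.163 RPM) and type 3 held 44 (0.253 RPM). None of their 19 and 22 cells was above 10 RPM, for which the exact intervals reach 17.6% and 15.4%. The type 1 cells above 10 RPM came from sets 383 (3 of 11) and 392 (2 of 11), with none of 12 in set 393.

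**Figure D3:**
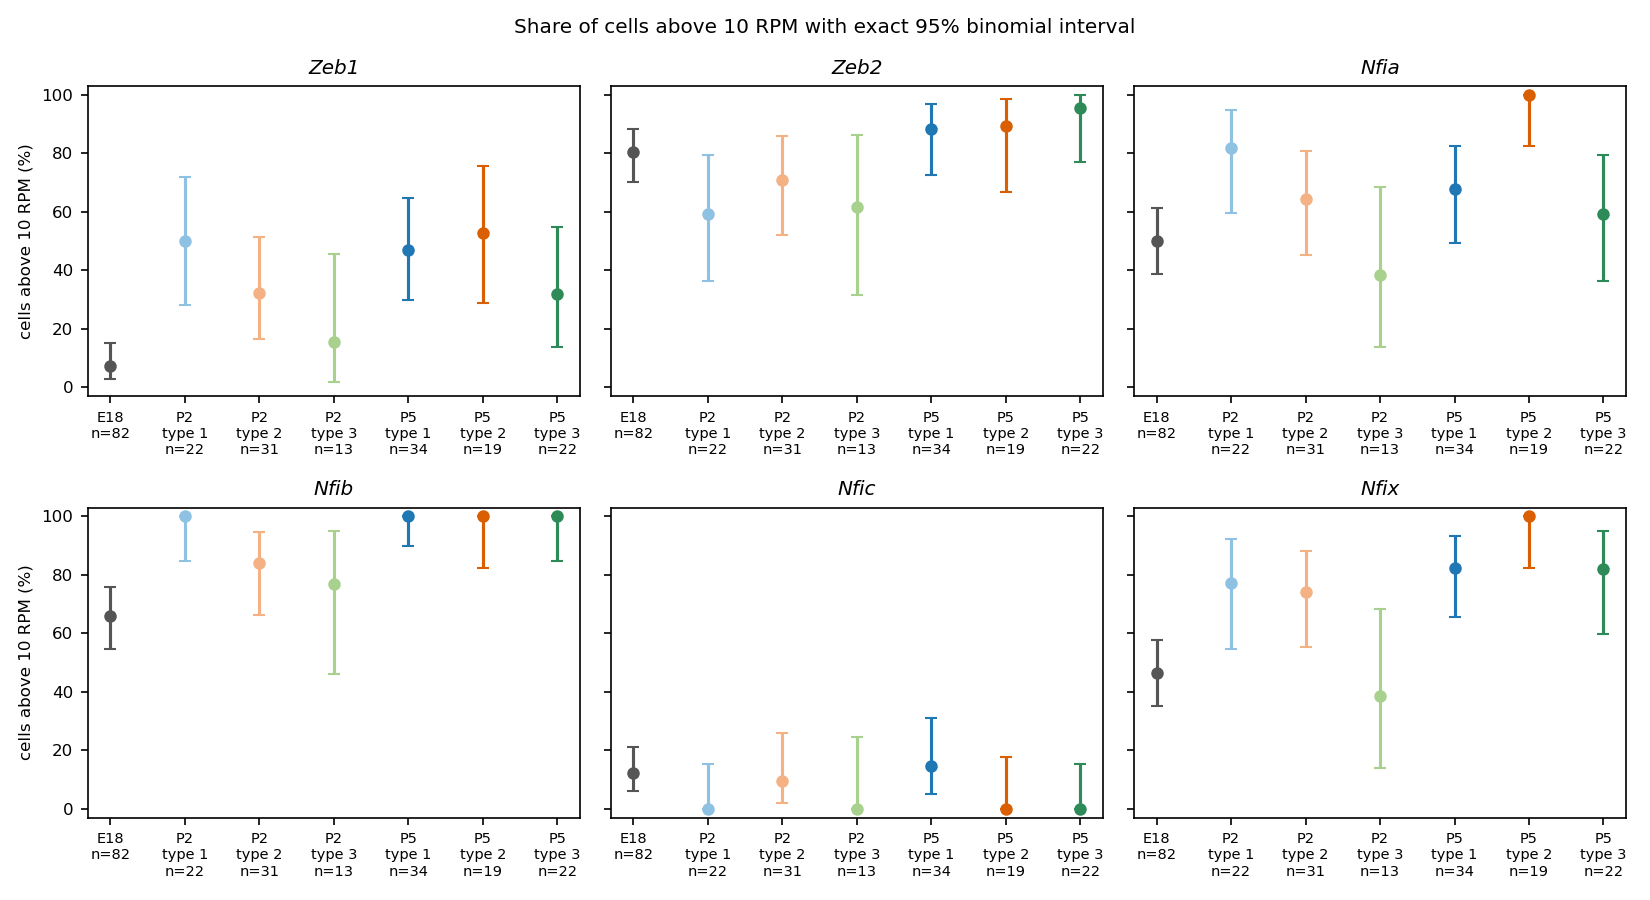
Percentage of cells above 10 RPM for each gene in the 7 groups, with exact 95% binomial intervals and the number of cells. Nfib reaches 100% in all P5 types, Nfia and Nfix reach 100% in type 2 at P5, and Zeb1 goes from 7.32% at E18 to between 31.8% and 52.6% at P5.

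The nearest values below and above the threshold of 10 RPM were 9.85 and 11.0 RPM for Zeb1, 9.77 and 10.0 for Zeb2, 8.57 and 10.9 for Nfia, 9.12 and 16.97 for Nfib, 9.69 and 13.2 for Nfic, and 9.81 and 10.0 for Nfix. Between 10 and 20 RPM there were 24 cells for Nfix and 1 for Nfib.

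Nfia, Nfib and Nfix varied together among the E18 cells. Across the 82 cells, Pearson's r of log2(RPM + 1) was 0.626 for Nfia with Nfib, 0.556 for Nfia with Nfix and 0.510 for Nfib with Nfix, and it was between -0.190 and 0.220 for all 12 other pairs of the 6 genes. The cells share 1 pool and differ in depth, whose part was not tested. With mapped read pairs, r was -0.01, 0.07 and -0.07 for Nfia, Nfib and Nfix. With the number of genes above 10 RPM in the cell, r was 0.19, 0.14 and 0.38. Of the 41 cells with Nfia above 10 RPM, 38 also had Nfib. All 3 genes were above 10 RPM in 28 of 82 cells and none of them in 20. At P2 r for the same pairs was 0.507, 0.442 and 0.546 over 66 cells, and at P5 0.306, 0.345 and 0.315 over 75 cells. At P5 Zeb1 had r nearly as high with Nfix (0.294), Nfia (0.275) and Nfib (0.236).

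This split of the E18 cells ran along with Lhx6 and Sst. All 3 Nfi genes were above 10 RPM in 14 of the 62 cells with Lhx6 or Sst (22.6%) and in 14 of the 20 cells without (70%). None was above it in 19 of the 62 and in 1 of the 20. Nfib was above 10 RPM in 35 of 62 cells with either marker (56.5%, 43.3 to 69.01), which had a median of 92.4 RPM, and in 19 of 20 cells without (95%, 75.1 to 99.9), with a median of 2081 RPM. Nfia had medians of 0.740 and 386 RPM in the cells with and without, and Nfix of 0.703 and 169.1 RPM. The 2 kinds of cell overlapped in range for each gene.

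Pooled levels followed. In the cells with and without Lhx6 or Sst, Nfia was at 167.04 and 745 RPM, Nfib at 964 and 2542 RPM, and Nfix at 55.8 and 303 RPM. Zeb2 differed less, at 288 and 232 RPM. Within the 62 cells with either marker, r remained at 0.570, 0.430 and 0.415 for Nfia with Nfib, Nfia with Nfix and Nfib with Nfix. At P2, where type 2 held 9 cells with Lhx6 or Sst, Nfib was above 10 RPM in 4 of them, with 166.2 RPM, and in all 22 others, with 1740 RPM. Nfia was at 41.1 and 351 RPM and Nfix at 30.9 and 351 RPM in these 9 and 22 cells.

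At E18, 12 of the 82 cells had at least 3 of 7 excitatory neuron markers above 10 RPM, and all 12 had Nfia, Nfib and Nfix above 10 RPM. Without them the E18 levels were 208.4 RPM for Nfia, 1095 RPM for Nfib and 76.2 RPM for Nfix. They made up 7 of the 62 cells with Lhx6 or Sst and 5 of the 20 without. In the 15 cells with neither, Nfia was at 767 RPM, Nfib at 2568 RPM and Nfix at 303 RPM, near the pooled values of the 20 cells. The median of Nfix was lower, however, at 55.4 RPM in the 15 cells against 169.1 RPM in the 20, with 10 of 15 and 15 of 20 cells above 10 RPM.

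**Figure D4:**
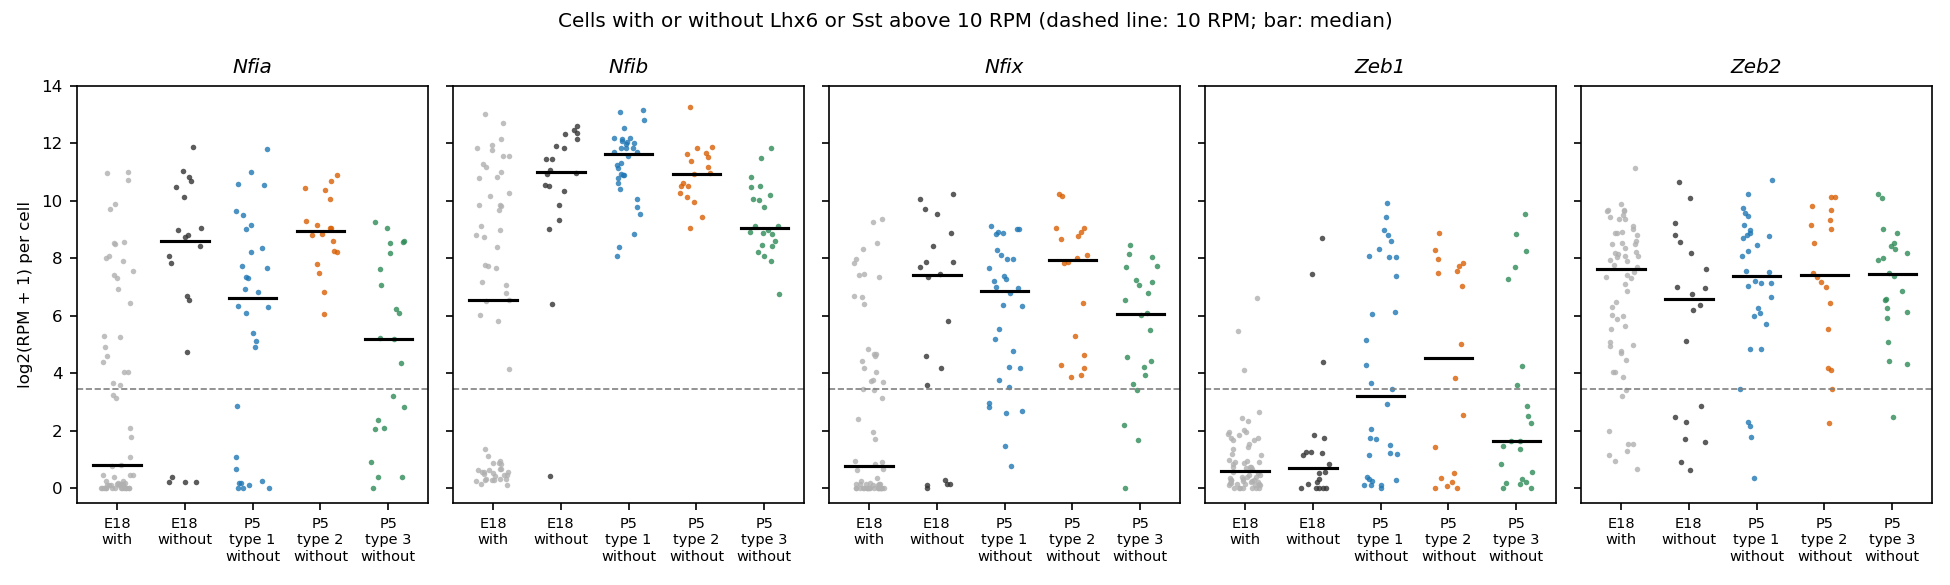
Level per cell, as log2(RPM + 1), of 5 genes in E18 cells with Lhx6 or Sst above 10 RPM (62 cells), in E18 cells without (20 cells) and in P5 cells without. Points are cells, bars are medians and the dashed line is 10 RPM, and the lower cloud of Nfib at E18 lies among cells with Lhx6 or Sst, except for 1 cell, whereas most Zeb1 cells lie below the line in both E18 groups.

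Counted over the 6 members, 3 were past 2-fold higher from E18 to P5 in type 1 (Zeb1, Nfib and Nfic) and none lower, where 13.1% of all tested genes were higher and 26.9% lower. In type 2, 3 were higher (Zeb1, Nfia and Nfix) and Nfic lower, against 15.7% and 26.6% of all genes. In type 3, Zeb1 was higher and Nfia and Nfic lower, against 11.4% and 49.6%, but Nfia was within 2-fold under the other scalings (-0.29 to -0.51). The median difference of the members was 0.90, 1.06 and -0.33, and that of all tested genes -0.23, -0.19 and -0.98. As these contrasts chose the genes, nothing is read from the counts.

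Without cells with Lhx6 or Sst, Zeb1 stayed past 2-fold higher in all 3 types at P5, with smaller differences, whereas Nfia, Nfib and Nfix were past 2-fold higher in none. Nfia then differed from E18 to P5 by -0.90, -0.07 and -2.37 in types 1, 2 and 3, Nfib by 0.32, 0.03 and -1.50, and Nfix by -0.76, 0.23 and -1.49. The members past 2-fold were Zeb1 and Nfic higher in type 1 (23% of all genes were higher and 26.7% lower), Zeb1 higher and Nfic lower in type 2 (24.8% and 24.5%), and Zeb1 higher and Nfia, Nfib, Nfic and Nfix lower in type 3 (19.2% and 45.5%). This alternative was chosen after the frequency of Lhx6 and Sst had been seen.

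**Figure D5:**
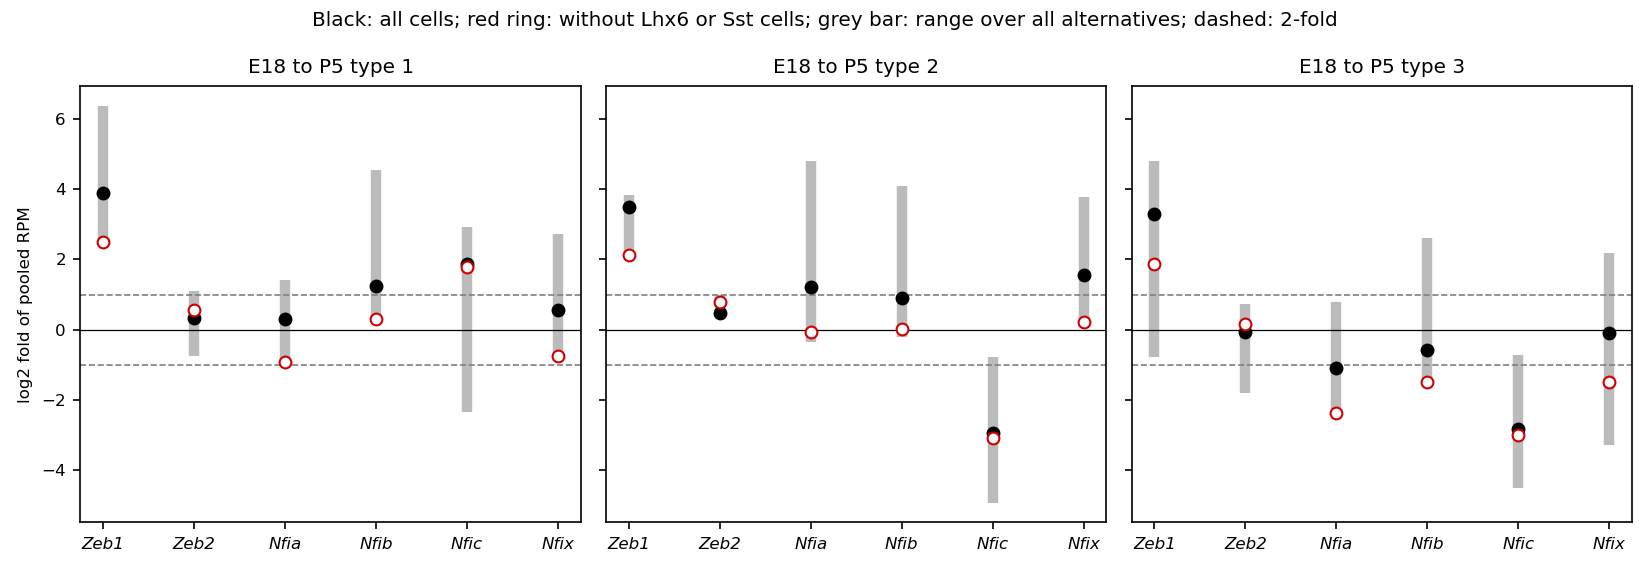
Log2 difference of pooled RPM from E18 to P5 for each gene, in types 1, 2 and 3, with 1 RPM added. Black points use all cells, red rings leave out cells with Lhx6 or Sst above 10 RPM, grey bars span all alternatives and dashed lines mark 2-fold, and the Zeb1 points and rings lie above 2-fold in all 3 types, while the rings of Nfia, Nfib and Nfix lie within 2-fold in types 1 and 2.

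From E18 to P2, Zeb1 was higher and Nfic lower in type 1, where 13.1% of all genes were higher and 39% lower. Nfix and Nfib, at 0.95 and 0.82 there, were past 2-fold higher by total counts on genes (1.21 and 1.07), TMM (1.43 and 1.30) and DESeq2 factors (1.60 and 1.47). Zeb1 and Nfix were higher in type 2 (13.3% and 26.1%), and Nfic was lower in type 3 (13.7% and 59.5%). Without cells with Lhx6 or Sst, Nfix in type 2 was within 2-fold (0.21) and Zeb1 was at 2.65, 1.85 and -4.33 in types 1, 2 and 3. Nfia was then past 2-fold lower in each type (-1.64, -1.08 and -1.10), as was Nfic in type 1 (-3.28) and type 2 (-2.04), with no read pair in type 3. Of all tested genes, 20.4% were then higher and 36.1% lower in type 1, 23.9% and 27.5% in type 2, and 16.3% and 57.6% in type 3. From P2 to P5, Nfic was higher in type 1 (32.8% and 20%), Zeb2 and Nfia higher and Nfic lower in type 2 (25% and 23.1%), and Zeb1 higher in type 3 (41.5% and 24.1%). Nfia in type 2, at 1.46 with all cells, was at 1.01 without cells with Lhx6 or Sst and within 2-fold (0.79) when cells with markers of another cell type were left out too.

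Between types of 1 age, the members called at P2 were Zeb1 higher and Nfic lower in type 1 (19.6% of genes higher and 33.7% lower), Nfic higher in type 2 (29.6% and 20.5%), and Zeb1 and Nfic lower in type 3 (15.4% and 54.8%). At P5 they were Nfic higher in type 1 (23.9% and 23.1%), Nfia and Nfix higher and Nfic lower in type 2 (23.9% and 21.1%), and Nfia, Nfib, Nfic and Nfix lower in type 3 (13.4% and 46.9%). Without cells with Lhx6 or Sst, Nfic in type 3 at P2 was within 2-fold (-0.79). With 10 RPM added in place of 1, or by the mean of log2(RPM + 1), no Nfic difference between types at P2 passed 2-fold. Type 3 at P5 held less of the Nfi family as a whole, with 88.02 RPM per kb of exon against 274 in type 1 and 278 in type 2, although 22 of its 22 cells had Nfib above 10 RPM. Scaled by total counts on genes, Nfia was still past 2-fold lower in type 3 than in the other P5 types (-1.02), while Nfib (-0.95) and Nfix (-0.34) were not. Nfix was also within 2-fold with TMM (-0.73) and DESeq2 factors (-0.78) and in set 393 (-0.53), which holds 17 of the 22 type 3 cells. Nfib was within 2-fold in set 383 (-0.69). The share of all genes called lower was also largest in type 3 at both ages, where depth was lowest. Median read pairs on genes per cell were lowest there too, at 2802948 at P2 and 2620272 at P5. Scaled by total counts on genes, the median of all genes against the other types went from -1.35 to -1.21 in type 3 at P2. At P5 it went from -0.85 to -0.16. The part of depth or of read pairs on genes was not tested.

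Counted per cell, the median number of the 6 genes above 10 RPM was 3 at E18, 4, 3 and 2 in types 1, 2 and 3 at P2, and 4, 5 and 4 at P5. Cells with no member above 10 RPM numbered 3 of 82 at E18, 1 of 66 at P2 and 0 of 75 at P5. Only 2 cells of the whole set had all 6. Nfia, Nfib and Nfix were above 10 RPM together in 20 of 34, 19 of 19 and 10 of 22 cells of types 1, 2 and 3 at P5.

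Zeb1 was also set beside the factors that mark the types. In type 1 at P5, all 16 cells with Zeb1 above 10 RPM had Meis2, a factor of this type, as did 17 of the 18 others. In type 2 at P5, all 10 cells with Zeb1 had Maf, a factor of migrating INs, as did 7 of the 9 others. At E18, none of the 6 cells with Zeb1 had Satb1, a chromatin organizer of MGE-derived INs, which 46 of the other 76 had, and 1 of the 6 had Sst against 51 of the 76. Lhx6 was in 2 of the 6 and 38 of the 76, and Sox6, another factor of these INs, in 2 of the 6 and 28 of the 76. These pairs of genes were named after their values were seen. Nfib at E18 was above 10 RPM in all 11 cells with Meis2 and in 18 of 40 with Lhx6.

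The genes whose pooled levels over the 7 groups were most like those of each member were picked from 8832 genes by Pearson's r of log2(RPM + 1). The groups share depth and library sets. For Zeb1 they were Igsf11 (0.966), Dlx6 (0.947), Sfrp2 (0.944), Gm23604 (0.942) and Grk3 (0.924). For Zeb2 they were Panx1, Phf2, Taf15, Akna and Ythdf1 (0.972 to 0.982), and for Nfia Lztr1, Lrrc58, D5Ertd579e, Ubxn6 and Dnajc24 (0.936 to 0.956). For Nfib they were Trp53bp1, Rap1a, Tiam2, Elmo2 and Sall3 (0.962 to 0.984), for Nfic Arid4b, Mum1, Zfp608, Poc1b and Crot (0.966 to 0.988), and for Nfix Inpp1, Akap10, Fmo1, Kmt5c and Chmp2b (0.870 to 0.924). Dlx6, a homeobox factor of INs, was at 5.32 RPM at E18 and 33.4, 37.7 and 18.9 RPM in the 3 types at P5.

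Partners, signals and targets of the 2 families were read from gene lists, beside which the medians of all tested genes from E18 to P5 were -0.23, -0.19 and -0.98. Of all tested genes, 13.1% were past 2-fold higher and 26.9% lower in type 1, 15.7% and 26.6% in type 2, and 11.4% and 49.6% in type 3. Of 17 corepressors, chromatin factors and Smads, 16 were tested. From E18 to P5, 1 was past 2-fold higher and 1 lower in type 1, 4 and 4 in type 2, and 0 and 9 in type 3, with medians of 0.19, -0.12 and -1.29. Hdac2, a histone deacetylase, differed by 1.47, 0.64 and -0.74, and Rbbp7, a histone-binding protein of repressor complexes, by 0.87, -2.25 and -5.91. Smad5, which carries BMP signals, differed by -0.63, -0.08 and -6.02, and Smad2, which carries TGF-beta signals, by 0.05, 0.78 and -2.48.

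Of 12 ligands and receptors of the TGF-beta and BMP pathways, 6 were tested, with 1 higher and 2 lower in type 1 (13.1% and 26.9% of all genes) and 1 higher and 3 lower in types 2 (15.7% and 26.6%) and 3 (11.4% and 49.6%). Their medians were -0.39, -0.88 and -1.12. The ligand gene Tgfb2 differed by 0.16, 2.94 and 2.91 and Tgfb3 by -3.002, -1.60 and -3.87, while the receptor gene Bmpr1a differed by -1.57, -3.44 and -3.21 and Acvr1 by 1.40, -0.12 and 0.34. None of the 5 miR-200 family genes, whose miRNAs target Zeb transcripts, passed the filter.

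Of 15 genes described as Zeb targets, 9 were tested, with 1 higher and 7 lower in type 1 (13.1% and 26.9% of all genes), 2 and 4 in type 2 (15.7% and 26.6%), and 2 and 5 in type 3 (11.4% and 49.6%). Their medians were -1.78, -0.80 and -1.47. The polarity genes Pard6a and Pard3 differed by -1.18, -2.02 and -5.70 and by -2.42, 1.03 and -2.83. Ackr3, a scavenger receptor of the chemokine CXCL12, differed by -1.78, -5.72 and -5.72, and Ntrk3, which encodes the neurotrophin receptor TrkC, by -1.01, -2.79 and 1.37. For Ackr3, -5.72 is the floor that no read pair gives with 1 RPM added, so its size is not measured.

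Upstream factors and partners of Nfi came to 9 genes, of which 7 were tested. In type 1, 4 were higher and none lower from E18 to P5 (13.1% and 26.9% of all genes), in type 2, 3 and 1 (15.7% and 26.6%), and in type 3, 1 and 3 (11.4% and 49.6%), with medians of 1.01, 0.60 and -0.72. Etv1, an ETS factor also used to mark type 1, differed by 2.63, 1.45 and -5.30, and the POU factors Pou3f4 and Pou3f2 by 1.52, 0.60 and -3.22 and by 1.01, -0.16 and -3.14.

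Neuronal genes described as Nfi targets were tested for 6 of 7, with 2 higher and 2 lower in type 1 (13.1% and 26.9% of all genes), 2 and 3 in type 2 (15.7% and 26.6%), and 0 and 4 in type 3 (11.4% and 49.6%). Their medians were 0.58, -0.87 and -1.73. Cntn2, an axonal adhesion molecule, differed by 1.11, -1.57 and -3.63, Wnt7a, a secreted Wnt ligand, by -2.51, -0.67 and -3.46, Efnb1, an ephrin, by 1.15, 1.26 and -2.41, and Cadps2, a regulator of vesicle release, by -1.87, -2.62 and 0.79.

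Glial genes described as Nfi targets were tested for 3 of 8. From E18 to P5, 2 were higher and 1 lower in type 1 (13.1% and 26.9% of all genes), 3 higher and 0 lower in type 2 (15.7% and 26.6%), and 1 and 1 in type 3 (11.4% and 49.6%), with medians of 2.21, 3.93 and -0.29. Fabp7, a fatty acid binding protein of radial glia, differed by 2.38, 6.33 and 3.31 in types 1, 2 and 3. Slc1a3, a glutamate transporter of astrocytes, differed by 2.21, 3.93 and -0.29, and Mmd2 by -4.16, 3.37 and -2.13. Fabp7 and Slc1a3 are also among the astrocyte markers given above for the 4 cells of type 2. Of 6 genes described as repressed by Nfi, 2 were tested. Ezh2, a histone methyltransferase, differed by -0.29, -1.69 and -1.03, and Sox9, a factor of glial progenitors also listed upstream of Nfi, by 0.59, 2.59 and 1.36.

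Without cells with Lhx6 or Sst, 23% of all genes were higher and 26.7% lower from E18 to P5 in type 1, 24.8% and 24.5% in type 2, and 19.2% and 45.5% in type 3. Of the 16 corepressors, chromatin factors and Smads, 5 were then higher and 3 lower in type 1, 5 and 5 in type 2, and 2 and 10 in type 3. Of the 6 ligands and receptors these counts were 2 and 3, 1 and 3, and 1 and 3. The 9 genes described as Zeb targets had 2 higher and 5 lower, 4 and 3, and 1 and 4, and their median in type 2 went from -0.80 to 0.98. The 7 upstream factors and partners of Nfi had 4 and 0, 4 and 0, and 3 and 3, with a median in type 3 of 0.77 in place of -0.72. The 6 neuronal targets had 2 and 1, 1 and 2, and 1 and 5, with a median in type 2 of 0.02 in place of -0.87. The 3 glial targets had the same counts as with all cells. The 2 genes described as repressed by Nfi had 0 higher and 0 lower, 1 and 1, and 0 and 1. Dlx6 differed from E18 to P5 by 3.67, 3.78 and 2.79 without these cells.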

How the data were processed

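Single cells were captured on a microfluidic chip and polyadenylated RNA was sequenced as read pairs. The authors aligned them to GRCm38 with TopHat2, counted them per gene with HTSeq 0.6.1 and deposited, per cell, unnormalized counts of read pairs and a coefficient that turns a count into RPM. All columns were used. Multiplying a count by the coefficient gave RPM, and 1000000 divided by the coefficient gave the mapped read pairs of the cell. Fold differences compare pooled RPM on the log2 scale after adding 1 RPM. With 1 pool per age no test was made, and a gene was called past 2-fold. Gene models came from GENCODE M21.

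The 6 genes and the gene lists were chosen with earlier results of these data known. Named besides the members are the 5 most alike genes per member, up to 4 list genes with the widest range past 2-fold, and overlapping genes. The lists are the partners, signals and targets of Zeb and Nfi and the cell type markers given in the text. Alternatives changed the threshold, depth, scaling, pseudocount, weight of cells, cells included, library set and gene filter. The pooling and folds were tried on simulated data. Only genes with higher E18 levels than Zeb1 and Nfic were changed there, so genes as low as these were not covered. TMM factors came from edgeR 4.0.16 and size factors from DESeq2 1.42.0 (R 4.3.3). All else was computed in Python 3.11.15 with pandas 2.3.3, numpy 2.4.6 and scipy 1.17.1 and drawn with matplotlib 3.10.9.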

Additional observations from a re-analysis of the deposited data

How the results depend on the processing

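Of 33 differences past 2-fold among the 90 computed, 407 of 417 values under the alternatives had the same sign and 353 were also past 2-fold. Within library sets, the sign changed for Nfic from E18 to P5 in type 1 in set 393 (-2.33), for Zeb1 from E18 to P5 in type 3 in set 383 (-0.77), and, against the other P5 types, for Nfic in types 1, 2 and 3 in set 393 (-0.30, 0.039 and 0.22) and for Nfia and Nfix in type 2 in set 383 (-0.33 and -0.20). Nfia from E18 to P5 changed sign in type 3 with the mean of log2(RPM + 1) over cells (0.80), and in type 2 without cells with Lhx6 or Sst (-0.069), also when cells with 3 markers of another cell type were left out too (-0.34). The number of members past 2-fold from E18 to P5 moved by more than 1.5 times as follows, and by less for the higher members in type 1 (2 to 4), for those in type 2 (2 to 4) under some other alternatives and for the lower members in type 3 in each set (3). In type 1 the lower members went from 0 to 1 in set 393. In type 2 the higher members went from 3 to 1 in set 393 and without the Lhx6 or Sst cells (with or without the further exclusion), and the lower member was lost (0) with a pseudocount of 10 RPM and with the mean of log2 values. In type 3 the higher members went from 1 to 3 with the mean of log2 values and to 0 in set 383. The lower members there went from 2 to 1 with total counts on genes, TMM factors, DESeq2 size factors, a pseudocount of 10 RPM and without cells with markers of another cell type, to 0 with the mean of log2 values, and to 4 without the Lhx6 or Sst cells (with or without the further exclusion). Scaling moved the median of all genes from E18 to P5, from -0.23 to between -0.14 and 0.11 in type 1, from -0.19 to between -0.22 and 0.12 in type 2, and from -0.98 to between -0.25 and -0.45 in type 3. The cause of these changes was not tested. Leaving out cells with Lhx6 or Sst was an alternative chosen after seeing the data. Thinning every cell to 3707601 mapped read pairs kept all 42 shares of cells above 10 RPM within their intervals, and 14 of the 42 left them with a threshold of 1 RPM, 20 with 100 RPM and 30 with 1 read pair.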

Other observations

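The list of genes of immature neurons (Sox4, Sox11, Sox12, 5 HMG genes, Dcx, Tubb3 and Stmn1) had a median difference from E18 to P5 of -0.26 in type 1, 0.13 in type 2 and -2.02 in type 3, where 8 of its 11 genes were past 2-fold lower and 49.6% of all tested genes were. Hmgb2, a chromatin protein of dividing cells, differed by -2.49, -3.81 and -4.93. Without cells with Lhx6 or Sst, the list had 8 lower genes in type 3 too (45.5% of all genes were lower) and medians of -0.10, -0.13 and -2.06, and Hmgb2 differed by -3.07, -4.43 and -5.60.

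The counts come from 1 pool of animals per age, so variation between animals is unknown. P2 is 1 library set. Type 3 is small and shallow at P2, and 1 cell can hold most of a sum there. The types were drawn by the authors from the same counts, so a level by type is no independent evidence of the type. Pooled RPM weighs cells by depth and level, and the share of cells above 10 RPM does not, so the 2 can differ in direction, as for Nfib in type 3 at P5.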
